A study of Homo sapiens with 18 samples.

Results

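The 9 genes described here encode surface proteins by which tumour cells restrain immune cells or complement: CD274, PDCD1LG2, CD276, LGALS9, CD47, PVR, NT5E, CD55 and CD59. They were chosen by name from the 19901 genes of the count table, with earlier results of these data known. All 9 were among the 15475 genes that passed the filter on low counts. mRNA was sequenced from 18 libraries of the established head and neck squamous cell carcinoma (HNSCC) lines Detroit 562, FaDu and SCC-9, with 3 untreated control libraries and 3 libraries of cells given 50 ng/ml hepatocyte growth factor (HGF, the ligand of the receptor tyrosine kinase MET) in each line. Treatment lasted 16 h according to the sample records and the study's methods, whereas the series record gives 48 h. Hydrocortisone was added only to SCC-9, which was kept in DMEM F12, while the other lines were kept in MEM-α, so that line and medium cannot be told apart in comparisons of SCC-9 with the other lines. No gene was altered experimentally in any group, and the cells were cultured alone, without immune cells. The study cites public data in which Detroit 562 carries an amplification of the MET gene.

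Checkpoint ligands on tumour cells bind inhibitory receptors on lymphocytes or macrophages. PD-L1 (CD274) and PD-L2 (PDCD1LG2) bind PD-1 on T cells, CD47 signals to SIRPα on macrophages, and the poliovirus receptor PVR (CD155) binds TIGIT, CD96 and the activating receptor CD226 on T and NK cells. CD73 (NT5E) converts extracellular AMP to adenosine, which dampens T cells through adenosine receptors, and CD55 and CD59 stop the complement cascade at the convertase and at the membrane attack complex. CD73, CD55 and CD59 are held in the membrane by a glycosylphosphatidylinositol (GPI) anchor.

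Total counts were between 35304770 and 44003970 per library, with a median of 40138919. Levels are given as counts scaled to library size (CPM, with TMM factors), and changes as log2 fold changes from edgeR's quasi-likelihood fit. Genes whose Benjamini-Hochberg adjusted p was below 0.1 and whose log2 fold change reached 0.4 in either direction were called. MET, the HGF receptor, averaged 793 CPM in untreated Detroit 562, against 148 CPM for FaDu and 289 CPM for SCC-9. The ERK phosphatase gene DUSP6, a target of the pathway, rose by a log2 of 1.53 in Detroit 562 and 1.44 in FaDu. For SCC-9 its log2 fold change was 0.47 (adjusted p 1), or 0.48 with the replicate number as a block (adjusted p 0.00766). None of the 12 squamous epithelial markers was without counts in any group, which also held for 8 leukocyte markers in Detroit 562. The sum of the squamous markers in Detroit 562 lay at 8230 to 12100 CPM in control and 5300 to 7980 CPM with HGF. Of the 12, 0 rose and 5 fell (KRT5, KRT19, KRT8, PKP1 and CDH1), where 6.16% of all genes tested rose and 11.7% fell. The part of this shift in the values of the 9 genes was not tested. The sum of 8 leukocyte markers did not exceed 3.04 CPM in Detroit 562, 6.68 CPM in FaDu or 11.5 CPM in SCC-9. Libraries with the same replicate number tended to deviate together, so the numbers were taken to pair control and HGF libraries. A fit with the number as a block within each line is given beside a result on HGF where it changed the call. Since the bulk RNA of a culture was measured, fewer cells that express a gene and less RNA per cell cannot be told apart.

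Of the 9 genes, 6 were higher with HGF in all 9 pairs of libraries: CD274, PDCD1LG2, PVR, NT5E, CD55 and CD59. Over all genes tested the share was 7.7%. CD276 was higher in 4 pairs, CD47 in 4 and LGALS9 in 2. In Detroit 562, the line with the highest MET, 5 of the 9 were called, against 17.9% of all genes tested. CD274, PDCD1LG2, PVR and CD59 rose, where 6.16% of all genes rose, and LGALS9 fell, where 11.7% of all genes fell. In FaDu and SCC-9 none of the 9 was called by edgeR, where 0.0258% and 0.0% of all genes were. An unadjusted p below 0.05 was found in FaDu for 3 of the 9 and for 1247 of all 15475 genes tested. For SCC-9 the numbers were 2 of the 9 and 641 of all genes. DESeq2 without a block also called 0 of the 9 in both lines. With the replicate block Detroit 562 had 7 calls, FaDu 4 and SCC-9 2, against 21.5%, 5.6% and 1.97% of all genes.

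**Figure D1:**
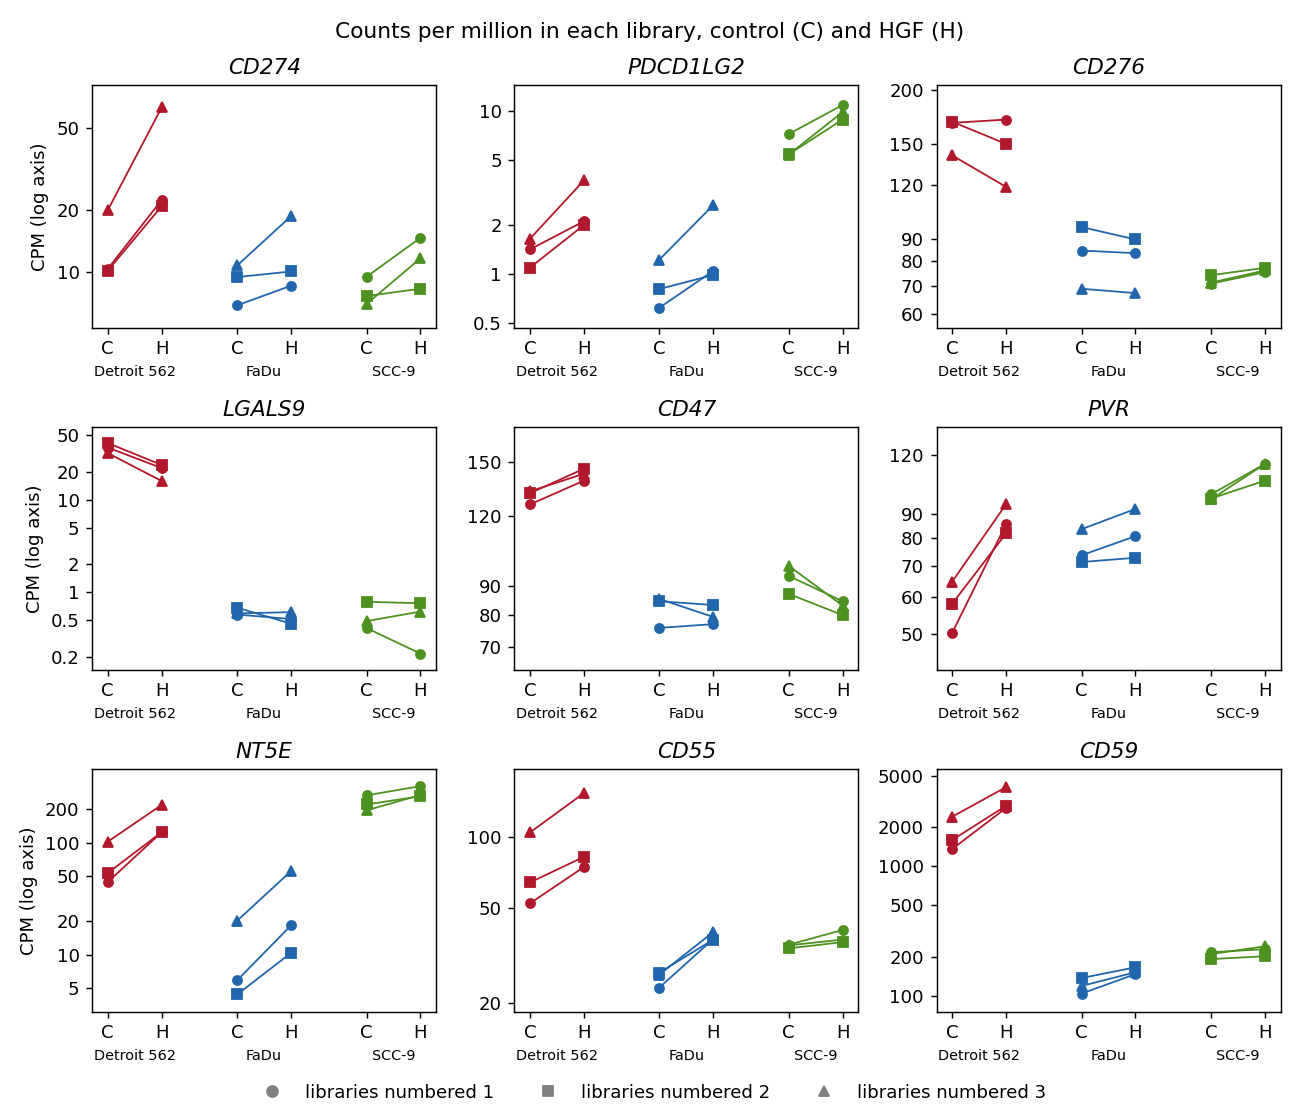
CPM (log axis, different in each panel) of the 9 genes in every library, with lines joining control (C) and HGF (H) libraries of the same replicate number in Detroit 562 (red), FaDu (blue) and SCC-9 (green). The joining lines go up in all 9 pairs for CD274, PDCD1LG2, PVR, NT5E, CD55 and CD59, and down in all 3 Detroit 562 pairs for LGALS9.

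The PD-1 ligands rose in Detroit 562. CD274 (ENSG00000120217.13, chr9:5450503-5470566, plus strand, GRCh38) stood at 10.4, 10.2 and 20.0 CPM in the control libraries numbered 1 to 3 and at 22.4, 20.9 and 62.8 CPM with HGF. The HGF libraries all lay above the control libraries, and the libraries numbered 3 were the highest of both groups. The fitted log2 fold change was 1.38 (SE 0.398, adjusted p 0.0196), or 2.61-fold, and the pairs ranged from 2.05-fold to 3.13-fold. Without HGF library 3 the log2 fold change was 0.68 and the adjusted p 0.175, so the call without the block rests on that library. With the block it was 1.29 (SE 0.136, adjusted p 3.63e-06).

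In FaDu CD274 was at 6.93, 9.49 and 10.8 CPM in control and 8.62, 10.1 and 18.7 CPM with HGF. SCC-9 held 9.52, 7.68 and 7.03 CPM in control and 14.7, 8.34 and 11.7 CPM with HGF. In both lines the groups overlapped, although HGF was higher in 3 of 3 pairs. Neither the log2 fold change of FaDu, 0.46 (adjusted p 0.755), nor that of SCC-9, 0.52 (adjusted p 1), was called, whereas the blocked fit gave 0.42 (adjusted p 0.081) and 0.50 (adjusted p 0.0929), both called.

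PDCD1LG2 (ENSG00000197646.7, chr9:5510570-5571254, plus strand), which lies next to CD274, was the least abundant of the 9 genes in Detroit 562. It was measured at 1.41, 1.09 and 1.64 CPM in control Detroit 562 and at 2.1, 1.99 and 3.74 CPM with HGF, on counts of 40 to 123 per library. These groups did not overlap, and the log2 fold change was 0.91 (SE 0.348, adjusted p 0.0648). The call was lost without HGF library 3 (0.57, adjusted p 0.304), without control library 1 (0.93, adjusted p 0.158) and without control library 2 (0.77, adjusted p 0.2). With the block the log2 fold change was 0.89 (adjusted p 0.000517).

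FaDu held even less PDCD1LG2, with 0.617, 0.804 and 1.22 CPM in control and 1.04, 0.981 and 2.64 CPM with HGF. SCC-9 held the most, with 7.22, 5.42 and 5.4 CPM in control and 10.9, 8.86 and 9.85 CPM with HGF. The SCC-9 groups did not overlap and those of FaDu did. Neither FaDu (0.81, adjusted p 0.609) nor SCC-9 (0.71, adjusted p 1) passed the test for PDCD1LG2, while with the block both did, at 0.80 for FaDu (adjusted p 0.0159) and 0.72 for SCC-9 (adjusted p 0.00314). In the blocked fit the differences of its response between lines were 0.08 to 0.17 on the log2 scale, and none passed the test. Their 95% intervals were wide: -0.46 to 0.65 for Detroit 562 minus FaDu, -0.26 to 0.60 for Detroit 562 minus SCC-9 and -0.39 to 0.55 for FaDu minus SCC-9. Larger differences are therefore not excluded.

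A stretch of the region upstream of CD274 is shown because it holds letters of interferon-type elements, and a stretch upstream of CD59 because it is the other of the 9 genes with the GAS letters in the same window. Capitals mark the motif letters, searched on both strands in the 250 bases before the first RefSeq start listed for each gene. They were GAS (TTCNNNGAA, bound by STAT dimers), ISRE (the interferon-stimulated response element, bound by interferon regulatory factors), AP-1 (TGANTCA) and the core of the hypoxia element (ACGTG). The CD274 stretch is chr9:5450322-5450442 (plus strand) and the CD59 stretch chr11:33736579-33736639 (minus strand), both from RefSeq on GRCh38.p14 and outside annotated exons. In CD274 the first run of capitals is 2 overlapping ISRE matches on the opposite strand and the second run is a GAS match.
CD274: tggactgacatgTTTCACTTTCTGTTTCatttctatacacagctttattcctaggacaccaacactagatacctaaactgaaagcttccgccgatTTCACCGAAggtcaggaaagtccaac
CD59: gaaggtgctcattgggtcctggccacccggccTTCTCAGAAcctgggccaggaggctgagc
Sequences were matched for 8 of the 9 genes, all but PDCD1LG2. Of 27305 promoters of the same length, 6.78% held GAS letters, 3.07% ISRE letters, 6.6% AP-1 letters and 18.7% the hypoxia core. Of the 8 matched genes, 2 held GAS letters, 1 held ISRE letters, 0 held AP-1 letters and 1 (CD47) held the hypoxia core. At other RefSeq starts listed for these genes, CD59 also held AP-1 letters and the hypoxia core, and CD276 the hypoxia core. A match describes the letters alone.

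The other surface ligands moved in different directions. PVR (ENSG00000073008.14, chr19:44643798-44663583, plus strand) was at 50.4, 58.1 and 64.7 CPM in control Detroit 562 and at 85.7, 81.9 and 94.5 CPM with HGF. The groups lay clearly apart, with a log2 fold change of 0.60 (SE 0.0979, adjusted p 0.00123) that was called without any one of the 18 libraries. In FaDu PVR was at 73.6, 71.2 and 83.6 CPM in control and 80.8, 72.7 and 92.3 CPM with HGF, and in SCC-9 at 99.1, 97.1 and 96.7 CPM in control and 115, 106 and 115 CPM with HGF. The FaDu groups overlapped and the SCC-9 groups did not, but the log2 fold changes of 0.11 (adjusted p 0.762) and 0.20 (adjusted p 1, or 0.0592 with the block) were not called in either fit, the second being under the fold minimum. The 3′ end of PVR shares 1306 bases with CEACAM19 on the same strand, and the count of CEACAM19 was 40.8% to 58% of that of PVR. Reads in the shared stretch were counted for both genes, and their part in the PVR values was not tested.

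LGALS9 (ENSG00000168961.16, chr17:27629798-27649560, plus strand) encodes galectin-9, a secreted and surface lectin that binds TIM-3 (HAVCR2). It stood at 36.9, 41.3 and 32.1 CPM in control Detroit 562 and fell to 22.1, 23.9 and 16.0 CPM with HGF. All HGF libraries lay below the control libraries, and the log2 fold change was -0.83 (SE 0.2, adjusted p 0.00817), called without any one of the 18 libraries. FaDu and SCC-9 held almost none, with 9 to 33 counts per library and from 0.215 to 0.784 CPM. At these counts the 95% interval of the log2 fold change ran from -0.97 to 0.52 in FaDu and from -0.84 to 0.67 in SCC-9. The near-identical paralogs LGALS9B and LGALS9C together had 8.69% to 16.3% of the LGALS9 count in Detroit 562 libraries, while the share was 16.7% to 112% for FaDu and 196% to 489% for SCC-9. The row AC015688.3 overlaps 10980 bases of LGALS9 on the same strand and had 30.6% to 1990% of its count over the 18 libraries. How reads were split among these rows was not tested.

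CD276 (B7-H3, ENSG00000103855.17, chr15:73683966-73714518, plus strand) inhibits T cells through a receptor that is not settled. It was at 168, 169 and 141 CPM in control Detroit 562 and 171, 150 and 119 CPM with HGF, and these groups overlapped. The log2 fold change was -0.12 with a 95% interval from -0.40 to 0.16. With the block it was -0.13 (interval -0.23 to -0.02, adjusted p 0.0469), under the fold minimum. In FaDu it was -0.05 (interval -0.33 to 0.23) and in SCC-9 0.08 (interval -0.20 to 0.36). The FaDu libraries were at 84.5, 95.9 and 68.8 CPM in control and 83.3, 89.7 and 67.2 CPM with HGF, which overlapped. Those of SCC-9 lay slightly apart, with 70.7, 74.0 and 71.1 CPM in control and 75.2, 77.0 and 75.9 CPM with HGF.

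CD47 (ENSG00000196776.15, chr3:108043094-108091862, minus strand) showed small differences in opposite directions. It was at 126, 132 and 133 CPM in control Detroit 562 and 139, 146 and 143 CPM with HGF, which did not overlap. In SCC-9 the libraries lay apart in the other direction, with 93.8, 87.1 and 97.8 CPM in control and 84.5, 79.8 and 83.0 CPM with HGF. For Detroit 562 the log2 fold change was 0.13 (adjusted p 0.128), for FaDu -0.04 (adjusted p 0.889) and for SCC-9 -0.17 (adjusted p 1). The block brought the adjusted p to 0.0211 for Detroit 562 and 0.0433 for SCC-9, while the fold changes stayed under the minimum.

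NT5E (CD73, ENSG00000135318.11, chr6:85449584-85495791, plus strand) had the largest paired ratios of the 9 genes in FaDu. In FaDu it was at 5.91, 4.42 and 20.1 CPM in control and at 18.3, 10.4 and 55.8 CPM with HGF, 2.34-fold to 3.09-fold higher within pairs. In Detroit 562 it was at 44.5, 53.6 and 102 CPM in control and 124, 124 and 217 CPM with HGF, 2.14-fold to 2.79-fold higher within pairs. The libraries numbered 3 held far more NT5E than the others in both groups of these lines: 2.07 times and 1.75 times the mean of the other libraries in control and HGF-treated Detroit 562, and 3.9 times in both groups of FaDu.

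Without the block NT5E was not called in Detroit 562 (log2 fold change 1.22, SE 0.53, adjusted p 0.101) or FaDu (1.47, adjusted p 0.57). With single libraries left out the value ran from 0.90 to 1.66 in Detroit 562 and from 0.50 to 2.44 in FaDu, lowest without HGF library 3 and highest without control library 3 of the line. Leaving out any of 6 libraries brought the Detroit 562 value under the threshold: control library 3 of Detroit 562 (1.66, adjusted p 0.0464), or 1 of 5 FaDu libraries (adjusted p 0.0409 to 0.0996), which are no part of that contrast but enter the shared estimate of the spread. With the block NT5E rose in Detroit 562 (1.26, SE 0.0701, adjusted p 1.94e-08) and in FaDu (1.46, SE 0.0891, adjusted p 1.88e-06). SCC-9 had the highest untreated level and the smallest change, from 264, 219 and 194 CPM to 319, 259 and 266 CPM. The log2 fold change there was 0.32, with an adjusted p of 1 without the block and 0.0146 with it, under the fold minimum in both.

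CD55 (decay-accelerating factor, ENSG00000196352.15, chr1:207321376-207386804, plus strand) and CD59 (protectin, ENSG00000085063.15, chr11:33703010-33736491, minus strand) are the complement inhibitors of the set. CD55 was at 52.5, 64.2 and 104 CPM in control Detroit 562 and 74.5, 82.2 and 152 CPM with HGF, where control library 3 lay above HGF libraries 1 and 2. In FaDu it went from 23.3, 26.9 and 26.4 CPM to 37.2, 37.0 and 39.8 CPM, with no overlap. SCC-9 showed 35.2, 34.0 and 35.0 CPM in control and 40.6, 36.1 and 37.0 CPM with HGF. CD55 was not called in Detroit 562 (0.48, adjusted p 0.133), FaDu (0.57, adjusted p 0.583) or SCC-9 (0.13, adjusted p 1). It was called in Detroit 562 when HGF library 1 (0.67, adjusted p 0.0503), HGF library 2 (0.62, adjusted p 0.0843) or control library 3 (0.82, adjusted p 0.00928) was left out, whereas without HGF library 3 its log2 fold change there was 0.09 (adjusted p 0.784). With the block it rose in Detroit 562 (0.47, adjusted p 6.33e-06) and FaDu (0.57, adjusted p 4.53e-05) but was not called in SCC-9 (0.12, adjusted p 0.298).

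CD59 was by far the most abundant of the 9 genes in Detroit 562. It was at 1360, 1600 and 2420 CPM in control and at 2830, 2940 and 4100 CPM with HGF, and ranked 24 to 58 among all genes by count in control libraries and 9 to 22 in HGF libraries. From 0.135% to 0.234% of all counts of a control library and 0.266% to 0.382% of an HGF library fell on CD59. The log2 fold change was 0.88 (SE 0.175, adjusted p 0.00321), called without any one of the 18 libraries. In FaDu CD59 went from 104, 137 and 119 CPM to 147, 166 and 152 CPM without overlap, a log2 fold change of 0.37 (adjusted p 0.618 without and 0.000943 with the block) that is under the minimum. In SCC-9 it went from 217, 192 and 210 CPM to 229, 202 and 241 CPM, with overlap (0.12, adjusted p 1). The row RP4-541C22.8 overlaps 19458 bases of CD59 on the same strand and had 100% to 101% of its count in every library, so reads of these rows cannot be told apart.

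Groups that did not overlap were 6 above and 1 below control in Detroit 562, where 18.1% and 20.1% of all genes tested lay so. They were 2 above and 0 below in FaDu (4.05% and 5.36% of all genes) and 4 above and 1 below in SCC-9 (8.3% and 9.12%). With 3 libraries against 3 the two-sided exact permutation test cannot give a p under 0.1, which each non-overlapping gene reached. Averaged over the 3 lines, 4 of the 9 genes were called, all higher, where 6.89% of all genes were called and 2.02% were higher. These were NT5E (1.00, adjusted p 0.0331), PDCD1LG2 (0.81, adjusted p 0.0125), CD274 (0.79, adjusted p 0.028) and CD59 (0.46, adjusted p 0.00836). The mean changes of PVR (0.30, adjusted p 0.00406) and CD55 (0.39, adjusted p 0.0495) were under the fold minimum. Without HGF library 3 of Detroit 562 the mean change of CD59 was 0.39, under the minimum. The mean change of CD55 ran from 0.26 without HGF library 3 of Detroit 562 to 0.50 without control library 3 of that line, and it was called without any of 8 libraries. LGALS9 (-0.38, adjusted p 0.149) was called without HGF library 2 of SCC-9 (-0.49, adjusted p 0.0745).

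**Figure D2:**
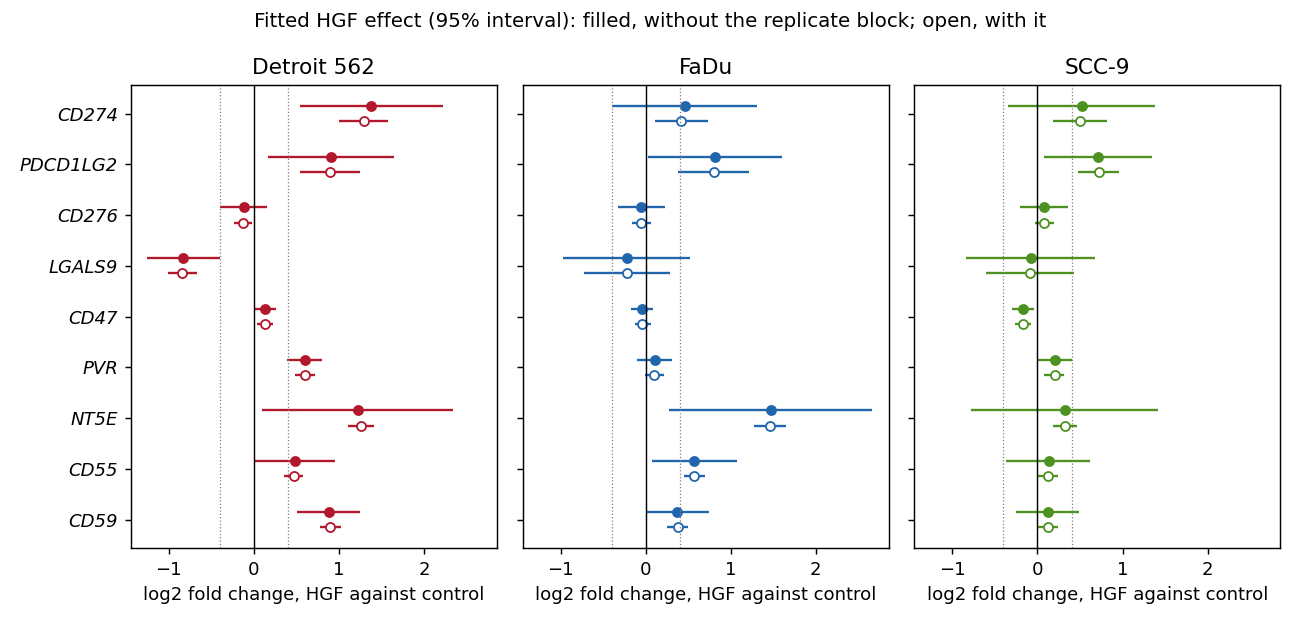
Fitted log2 fold change of HGF against control (x axis) with its 95% interval for the 9 genes in each line, without the replicate block (filled) and with it (open). Dotted lines mark the fold minimum of 0.4 in each direction. The intervals of NT5E, CD55 and CD274 were much shorter with the block, while the largest move of a fold change was that of CD274 in Detroit 562, from 1.38 to 1.29.

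Whether the response to HGF differed between lines was tested directly, as the difference of log2 fold changes, with an adjusted p below 0.1 alone. Without the block 0 of the 9 genes differed between any pair of lines in edgeR, where 0.239% of all genes differed between Detroit 562 and FaDu, 0.924% between Detroit 562 and SCC-9 and 0.0% between FaDu and SCC-9. Of the 9 genes, 1, 3 and 0 had an unadjusted p below 0.05, as did 1788, 2378 and 337 of the 15475 genes tested. DESeq2 without its prior called 1, 2 and 0 of the 9. Over all genes it called 261 of 14600, 648 of 14222 and 3 of 19517. Without control library 3 of Detroit 562, edgeR called PVR (0.58, adjusted p 0.0573) and CD59 (0.78, adjusted p 0.0709) against FaDu, and CD47 (0.31, adjusted p 0.0751), PVR (0.49, adjusted p 0.0614) and CD59 (1.03, adjusted p 0.0166) against SCC-9.

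With the block 4 of the 9 responses differed between Detroit 562 and FaDu (19.1% of all genes), 8 between Detroit 562 and SCC-9 (26.9%) and 2 between FaDu and SCC-9 (1.32%). Detroit 562 exceeded FaDu for CD274 by a log2 of 0.87 (adjusted p 0.0128), for CD59 by 0.52 (adjusted p 0.00149), for PVR by 0.50 (adjusted p 0.00128) and for CD47 by 0.16 (adjusted p 0.0904). For NT5E the difference was -0.20 with a 95% interval from -0.45 to 0.04, and for CD55 it was -0.11 (interval -0.27 to 0.06). Both genes responded more in FaDu than in SCC-9, NT5E by 1.14 (adjusted p 0.000959) and CD55 by 0.45 (adjusted p 0.0211). These contrasts share libraries and are not independent of each other.

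**Figure D3:**
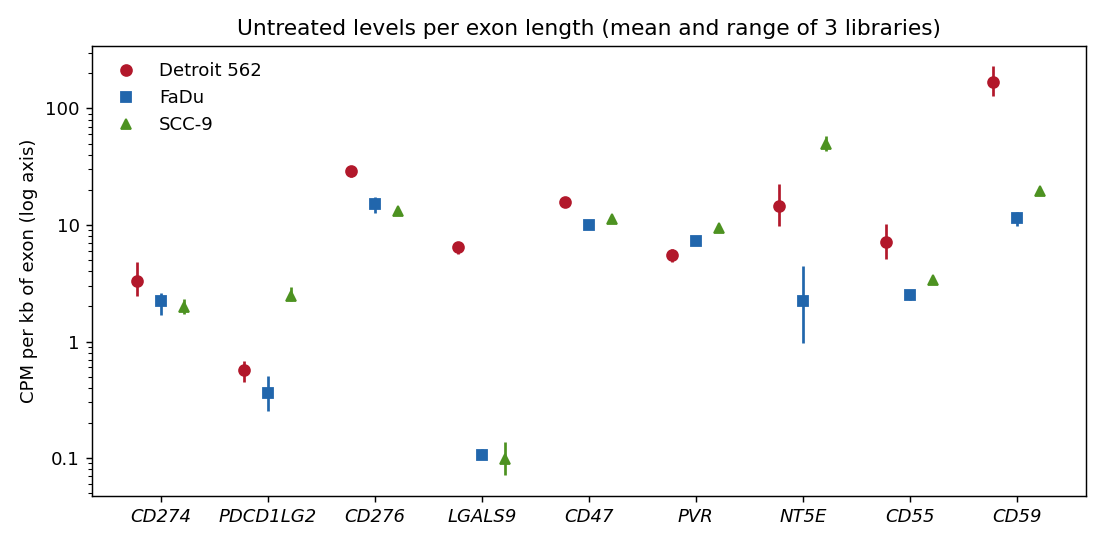
Untreated level of each gene in CPM per kilobase of exon (log axis); markers are means and bars the range of 3 control libraries of Detroit 562 (red circles), FaDu (blue squares) and SCC-9 (green triangles). CD59 in Detroit 562 averaged 170 and NT5E in SCC-9 averaged 49.8, while LGALS9 was near 0.1 in FaDu and SCC-9.

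The untreated lines carried different sets of these genes. Per kilobase of exon, the CD59 level led in Detroit 562 at 170 ± 52.5 CPM (SD, n = 3), followed by CD276 at 29.1 ± 2.84, CD47 at 15.8 ± 0.427 and NT5E at 14.7 ± 6.77, the last pair within their spread. In FaDu the order was CD276 at 15.2 ± 2.49, CD59 at 11.4 ± 1.58, CD47 at 9.94 ± 0.648 and PVR at 7.3 ± 0.631. By CPM alone CD59 (120) stood above CD276 (83.1) in untreated FaDu, so the order of genes depends on the exon lengths used. Reads were counted over whole gene extents, whereas the exon lengths came from a later GENCODE release. In SCC-9 NT5E led at 49.8 ± 7.81, before CD59 at 19.5 ± 1.23, CD276 at 13.1 ± 0.332 and CD47 at 11.3 ± 0.652. CD274 had 3.3 ± 1.37, 2.21 ± 0.484 and 1.97 ± 0.314 in Detroit 562, FaDu and SCC-9. Without the block it was the 1 gene of the 9 that was called between no pair of untreated lines. Its log2 difference of 0.74 between Detroit 562 and SCC-9 was then called when any of 6 libraries was left out (0.74 to 0.91, adjusted p 0.0369 to 0.0969). With the block the log2 differences of CD274 were 0.52 for Detroit 562 against FaDu (SE 0.147, or 0.405 without it) and 0.67 against SCC-9. That fit takes the spread between replicate numbers of a line out of the error, although a comparison of lines rests on it. Its p values for untreated lines are therefore not used.

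Without the block, 6 of the 9 genes were called between untreated Detroit 562 and FaDu. For Detroit 562 against SCC-9 the number was 8 and for FaDu against SCC-9 it was 4. Of all genes, 61.0%, 65.4% and 64.2% were called in these comparisons. LGALS9 was 59.9-fold higher in Detroit 562 than in FaDu and 65.3-fold higher than in SCC-9, and did not differ detectably between the latter at 17 to 33 counts per control library. CD59 was 15-fold and 8.71-fold higher in Detroit 562 than in FaDu and SCC-9. NT5E ran from FaDu through Detroit 562 (log2 difference 2.71, SE 0.575) to SCC-9 (a further 1.76 above Detroit 562 on the log2 scale, SE 0.536). PDCD1LG2 was lower in FaDu than in SCC-9 by a log2 difference of -2.77 (SE 0.352) and lower in Detroit 562 than in SCC-9 by -2.12 (SE 0.337). CD276, CD47 and CD55 were highest in Detroit 562, with log2 differences from FaDu of 0.94, 0.67 and 1.53. PVR alone was lowest in Detroit 562, by -0.76 against SCC-9 and by -0.40 against FaDu. The latter was called when any of 4 libraries was left out. PVR was also called between FaDu and SCC-9 (-0.36) without FaDu control library 3 (-0.43). PDCD1LG2 was called between Detroit 562 and FaDu (0.65) without library 3 of FaDu control (0.96) or FaDu HGF (0.64). With the block its log2 difference there was 0.72, with an error that leaves out the spread between replicate numbers. CD55 was lower in FaDu than in SCC-9 (-0.44, adjusted p 0.0969), a call that was lost when any of 13 libraries was left out, for example FaDu control library 1 (-0.38, adjusted p 0.213).

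**Figure D4:**
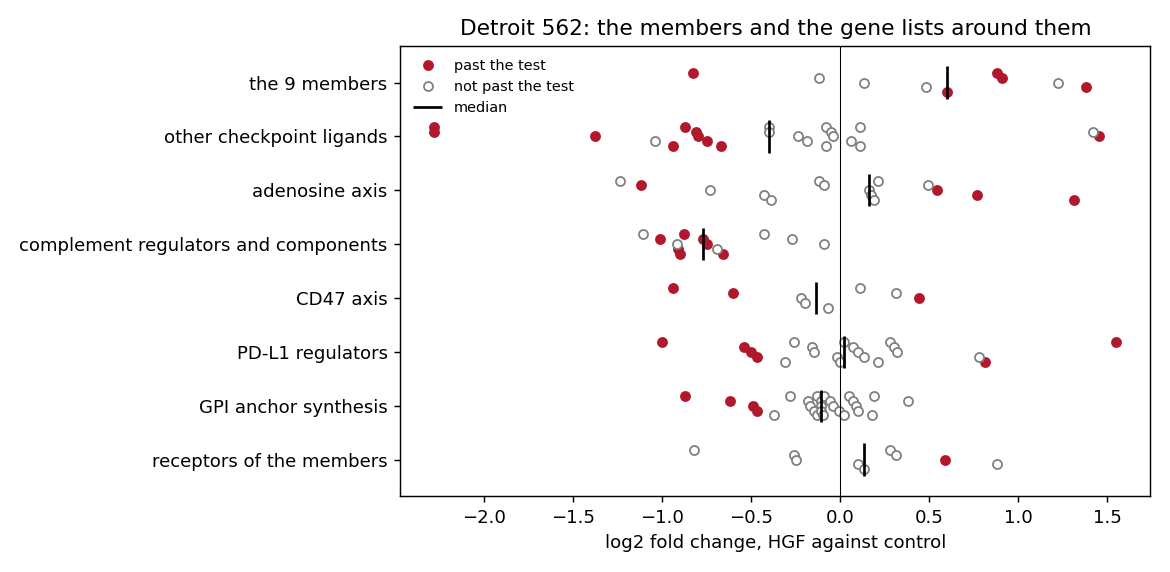
Log2 fold change of HGF against control in Detroit 562 (x axis) for the 9 genes and for 7 lists of related genes; each point is a gene, red where called, and the black bar is the median of a list. The median was 0.60 for the 9 genes, -0.40 for other checkpoint ligands and -0.77 for complement genes.

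The related genes of each pathway in Detroit 562 are given by their counts, beside a median log2 fold change of -0.01 over all genes tested, of which 6.16% rose and 11.7% fell. Of 23 other checkpoint ligands tested, 1 rose and 9 fell (10 with the block), with a median of -0.40. VTCN1, the B7 family ligand B7-H4, went from a mean of 21.2 to 4.35 CPM (-2.28, adjusted p 0.00117), and NECTIN4, a TIGIT ligand like PVR, from 20.2 to 7.73 CPM (-1.38, adjusted p 0.0023). IDO1, which degrades tryptophan, fell from 0.674 to 0.137 CPM (-2.28, adjusted p 0.00708), and TNFSF18, the ligand of GITR, rose from 0.562 to 1.53 CPM (1.45, adjusted p 0.00893). Both had means under 2 CPM.

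Of 15 genes of the adenosine axis tested, 3 rose and 1 fell, with a median of 0.16. The adenosine transporter gene SLC29A1 rose from 59.3 to 101 CPM (0.77, adjusted p 0.00362), and ADORA2B, an adenosine receptor, from 53.3 to 77.3 CPM (0.54, adjusted p 0.00107). DPP4 (CD26), which binds adenosine deaminase, also rose (1.31, adjusted p 0.068), but from 0.0686 to 0.176 CPM. ACPP, another phosphatase that makes adenosine from AMP, fell from 1.75 to 0.806 CPM (-1.12, adjusted p 0.0928). With the block 3 rose and 4 fell, ACPP being joined by ADORA1, ALPL and CD38.

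Of 13 complement genes other than CD55 and CD59, 0 rose and 7 fell, with a median of -0.77. CFB, the factor B protease of the alternative pathway, fell from 51.9 to 28.2 CPM (-0.88, adjusted p 0.00893), and C2 of the classical pathway from 2.69 to 1.34 CPM (-1.01, adjusted p 0.00733). The soluble regulator CLU fell as well, from 76.2 to 40.5 CPM (-0.91, adjusted p 0.0544). CD59 rose in the same libraries, and the list includes both activators and inhibitors of the cascade. With the block Detroit 562 had 11 of the 13 lower, FaDu 4 and SCC-9 2, where 21.5%, 5.6% and 1.97% of all genes were called in either direction.

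Of 8 genes around CD47, 1 rose and 2 fell, with a median of -0.14. THBS1, thrombospondin-1 and a ligand of CD47, rose from 1090 to 1480 CPM (0.44, adjusted p 0.0539). CD24, the ligand of Siglec-10, fell from 338 to 177 CPM (-0.94, adjusted p 0.00258), and LRP1, the macrophage receptor for calreticulin, from 48.5 to 32.0 CPM (-0.60, adjusted p 0.0925). Of 27 genes of GPI anchor synthesis, 0 rose and 4 fell, with a median of -0.11, a share close to that of all genes. The largest were PGAP3 (-0.87, adjusted p 0.001) and PGAP1 (-0.62, adjusted p 0.00421), both of which remodel the anchor after it is attached. Of 9 receptors of the ligands tested, 1 was called, CD96, at 0.68 CPM in control and 1.04 CPM with HGF (0.59, adjusted p 0.0892).

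Of 21 regulators of PD-L1, 2 rose (3 with the block) and 4 fell, with a median of 0.02. FOSL1, an AP-1 subunit, rose from 180 to 527 CPM (1.55, adjusted p 0.00475) and SOCS3, a feedback inhibitor of STAT3 signalling, from 20.7 to 36.2 CPM (0.81, adjusted p 0.0354). IRF1, the interferon regulatory factor of the ISRE type of element, fell from 60.3 to 30.1 CPM (-1.0, adjusted p 0.000653), and STAT2, a subunit of the interferon-activated complex, from 36.8 to 25.4 CPM (-0.54, adjusted p 0.00345). CD274 rose in the same libraries in which FOSL1 and SOCS3 rose and IRF1 and STAT2 fell. A link of any of these genes with CD274 was not tested.

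Of the genes with a mean count of at least 50, those closest to each called gene in log2 CPM centred within lines over the 18 libraries were found, by the root mean square difference. For CD274 they were TGFA (0.221), C11orf91 (0.222) and PTGS2 (0.232), beside a root mean square of 0.601 for CD274 itself. For PDCD1LG2 they were DOCK4 (0.177), DLC1 (0.193) and ADAM8 (0.197), beside 0.529. For LGALS9 they were TMC4 (0.22), THBS3 (0.224) and TAPBPL (0.244), beside 0.435. The nearest genes of CD59 and PVR were the overlapping rows RP4-541C22.8 (0.001) and CEACAM19 (0.0535), with HK2 (0.116) also near CD59, and followed for PVR by CDC37 (0.0546) and AATF (0.0584). Among the 9 genes themselves, CD55 and CD59 were the closest pair (0.179) and LGALS9 and NT5E the farthest (1.09). These are descriptions over libraries that share line, treatment and replicate number.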

How the data were processed

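The 18 libraries were grouped by cell line and treatment from their labels. The authors prepared stranded mRNA libraries, trimmed reads with Cutadapt (1.16 in the submitters' processing notes; the study's methods also name another release), aligned them with STAR 2.5.2b to GRCh38.p12 with the GENCODE annotation and counted, with bedtools, reads overlapping the extent of each gene on its strand. The deposited values are raw counts, without normalization; overlapping genes share reads. Here counts were fitted with edgeR 4.0.16 (R 4.3.3): filterByExpr, TMM factors, 1 mean per group over all 18 libraries, and quasi-likelihood tests whose p values were adjusted by Benjamini-Hochberg over 15475 genes. The thresholds (adjusted p below 0.1, absolute log2 fold change of at least 0.4) follow the study, which used DESeq2; its methods state no block, and the fit here had none. Each adjusted p comes from that edgeR fit unless its passage names the replicate block, left-out libraries or DESeq2 1.42.0. Single genes were also compared by two-sided exact permutation tests. Depth per library (35304770 to 44003970 counts) limits precision mainly for LGALS9 in FaDu and SCC-9 and for PDCD1LG2. Nothing in the labels says that libraries came from separate cultures, although the study repeated the experiment; p values measure the spread between these libraries, which may be technical.

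Same-numbered control and HGF libraries tended to deviate together. Pearson r across genes, which are not independent, was 0.161 to 0.563, against at most 0.218 for other numbers. The 0.218, of control 1 with HGF 2 in Detroit 562, exceeded the 0.161 of control 2 with HGF 2. The numbers were taken to pair the libraries, which the labels do not state, and the main alternative blocked on the number within lines. The other alternatives were 2 other scalings, 2 other filters, DESeq2 with and without its prior, the compared lines alone, 2 other thresholds and each library left out; 3 were added after the data were seen. On simulated counts the edgeR fit recovered 87.5% of 200 genes changed by a log2 of 1 in Detroit 562, with 18 false calls among 15381 genes. It recovered 49.0% of 200 genes whose response differed by a log2 of 1 between Detroit 562 and FaDu. Every simulated gene had the same dispersion and no effect of the replicate number. Recovery of genes with a wider spread, such as NT5E (SE 0.53 in Detroit 562), was not tested.

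The 9 genes and the lists were chosen with earlier results of these data known. Named were the 9 genes; up to 4 called genes of each list by size of change, and any gene of lists of up to 8 genes; the 3 nearest genes of each called gene; and MET and DUSP6. Some genes that this rule would name are not reported here. Genes named outside this rule were chosen after their values were seen and are given as such.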

Additional observations from a re-analysis of the deposited data

Results flagged for a closer look

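With the replicate block, 14 responses to HGF differed between lines by the test of the difference itself (edgeR's quasi-likelihood test). Detroit 562 minus FaDu gave log2 differences of 0.87 for CD274, 0.16 for CD47, 0.50 for PVR and 0.52 for CD59. Detroit 562 minus SCC-9 gave 0.79 for CD274, -0.21 for CD276, -0.74 for LGALS9, 0.30 for CD47, 0.41 for PVR, 0.93 for NT5E, 0.34 for CD55 and 0.78 for CD59, with adjusted p values from 4.39e-05 for NT5E to 0.0568 for LGALS9. FaDu minus SCC-9 gave 1.14 for NT5E and 0.45 for CD55. None of these differences was called by the edgeR fit of all 18 libraries without the block. Without control library 3 of Detroit 562 the unblocked fit called PVR and CD59 against FaDu, and CD47, PVR and CD59 against SCC-9. DESeq2 without a block also called some differences. LGALS9 had 9 to 33 counts per library in SCC-9, and SCC-9 was grown in another medium, which cannot be told apart from the line.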

How the results depend on the processing

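The replicate block within each line changed the number of the 9 genes called with HGF from 5 to 7 in Detroit 562, from 0 to 4 in FaDu and from 0 to 2 in SCC-9, and the responses that differed between lines from 0 to 4 (Detroit 562 minus FaDu), 8 (Detroit 562 minus SCC-9) and 2 (FaDu minus SCC-9). DESeq2 with the block, added after the data were seen, gave 4 in FaDu, 2 in SCC-9 and differences of 3, 8 and 2. DESeq2 without a block gave differences of 1 and 2 against FaDu and SCC-9 with and without its prior, and the compared lines alone gave 1 against SCC-9. Only the libraries numbered 1 and 2, added after the data were seen, gave 2 calls in FaDu and differences of 1 and 3; with the block they gave 3 in FaDu, 1 in SCC-9 and differences of 3, 6 and 2. The stricter threshold (adjusted p below 0.05, absolute log2 fold change of at least 1) left 1 gene in Detroit 562, 1 in the mean over lines and 2 between untreated FaDu and SCC-9.

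Leaving out each library in turn gave 3 to 7 calls in Detroit 562, 3 to 6 in the mean over lines, 0 to 2 differences of Detroit 562 from FaDu and 0 to 3 from SCC-9, 6 to 7, 8 to 9 and 3 to 4 calls between untreated lines, and 0 in FaDu and SCC-9. Signs that changed in this way were all of results that were not called. The log2 values ran from -0.24 to 0.01 for CD276 in Detroit 562, -0.17 to 0.07 for CD276 in FaDu, -0.07 to 0.01 for CD276 in the mean and -0.44 to 0.29 for LGALS9 in SCC-9. Differences of response of Detroit 562 from FaDu ran from -0.19 to 0.06 for CD276, -0.48 to 0.24 for CD55, -1.22 to 0.72 for NT5E and -0.25 to 0.70 for PDCD1LG2. Those of Detroit 562 from SCC-9 ran from -0.04 to 0.69 for CD55 and -0.15 to 0.35 for PDCD1LG2. Those of FaDu from SCC-9 ran from -0.46 to 0.16 for CD274, -0.50 to 0.23 for LGALS9 and -0.50 to 0.41 for PDCD1LG2, and untreated FaDu minus SCC-9 from -0.06 to 0.46 for LGALS9. Only the libraries numbered 1 and 2, with and without the block, gave -0.06 for CD274 in untreated FaDu minus SCC-9, 0.01 for CD47 in FaDu and in the mean, and -0.12 for PDCD1LG2 in the response of FaDu minus SCC-9. The causes were not tested. Where an arm kept 2 libraries, the shared estimate of the spread was used. Other scalings and filters moved no count by over 1.5 times.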

Other observations

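The values of 4 partners of the 9 genes were chosen after they were seen. CD46, the membrane complement regulator beside CD55 and CD59, averaged 224 CPM in control and 210 CPM in HGF-treated Detroit 562 (log2 fold change -0.09, edgeR adjusted p 0.338), and its log2 fold change was -0.09 in FaDu and 0.04 in SCC-9. NECTIN2, which shares receptors with PVR, had log2 fold changes of -0.24 in Detroit 562 (adjusted p 0.0841, under the fold minimum), -0.24 in FaDu and -0.07 in SCC-9, where PVR had 0.60, 0.11 and 0.20. CMTM6, which keeps PD-L1 at the cell surface, had -0.02, 0.14 and 0.02. ENTPD1 (CD39), which makes the AMP that CD73 uses, was nearly undetected, with a mean of 0.0530 CPM in untreated Detroit 562, and was not tested.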
